A study of Mus musculus with 45 samples.

Results

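Fas, BAFF, lymphotoxin, RANKL and LIGHT genes of the tumor necrosis factor (TNF) superfamily were followed in T and B lymphocytes from immunized lymph nodes of S1PR4-sufficient and S1PR4-deficient mice. They were the ligands Fasl, Tnfsf13b (BAFF), Tnfsf11 (RANKL), Tnfsf14 (LIGHT), Lta and Ltb (lymphotoxin α and β) and the receptors Fas, Tnfrsf13b (TACI) and Tnfrsf13c (the BAFF receptor). The 9 members were taken by gene symbol from a table of 55450 genes, and all 9 were found there.

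S1PR4 is a G protein-coupled receptor for the lipid sphingosine-1-phosphate on lymphocytes, and gene expression was measured by RNA-sequencing of sorted cells with and without it. Knockout (KO) mice carried the germline S1pr4 deletion of strain B6.129P2-S1pr4tm1Dgen/J, backcrossed to C57/BL6, so every cell type of the KO host lacked the receptor. Wild type (WT) mice were S1pr4+/+ littermates. Mice of both sexes aged 8 to 12 weeks were immunized in the hind footpads with 20 µL of an incomplete Freund's adjuvant emulsion holding 50 µg ovalbumin and 5 µg lipopolysaccharide, and the draining popliteal lymph nodes were taken. T follicular helper (TFH) cells, sorted as TCRβ+CD4+PD1+CXCR5+, and non-TFH CD4+ T cells, sorted as PD1-CXCR5-, came from day 6, with 6 WT and 6 KO samples each. Germinal center (GC) B cells, sorted as B220+GL7+Fas+, and non-GC B cells, sorted as B220+GL7-Fas-, came from day 9, with 6 WT and 6 KO samples of GC B cells and 5 WT and 4 KO samples of non-GC B cells. B and T cells therefore differed in day and sort as well as in lineage, and these cannot be told apart. Fas was itself a gate for the B cells, so its level in GC B against non-GC B cells describes the sort.

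TNF superfamily ligands are mostly membrane-bound trimers that signal between touching cells. Fas ligand binds the death receptor Fas and starts apoptosis, a route by which activated lymphocytes are removed. BAFF is the survival factor of mature B cells and binds the BAFF receptor, TACI and BCMA. Lymphotoxin α forms a soluble homotrimer that binds TNF receptors, or a surface heterotrimer with lymphotoxin β that binds the lymphotoxin β receptor on stromal cells and organizes lymphoid tissue. RANKL binds RANK and LIGHT binds HVEM and the lymphotoxin β receptor.

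Total counts were 26299429 to 45548215 per sample, with a median of 34188292. S1pr4 had 0 to 40 counts in the KO samples and 505 to 6305 in the WT samples. Levels are given as CPM, counts scaled to a common library size. The 7 TFH markers summed to 3103 to 3652 CPM in WT TFH cells against 226 to 353 in WT non-TFH cells, and the 7 GC B markers to 1435 to 2329 CPM in WT GC B cells against 138 to 191 in WT non-GC B cells. The 12 T markers summed to 8672 to 11890 CPM in the T cell samples. A single TFH KO sample (replicate 6) had 459 CPM of 12 myeloid markers where the other TFH KO samples had 26.7 to 83.3, and the KO values that turned on it are given also without it.

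CPM followed trimmed-mean scaling, and genes were compared with each other as CPM per kb of transcript. Ltb was the most abundant member in each WT population, with 860 CPM per kb in non-TFH cells, 628 in non-GC B, 350 in GC B and 307 in TFH cells. Among B cells Tnfrsf13c came next, with 340 CPM per kb in non-GC B and 286 in GC B cells, followed by Tnfrsf13b with 186 and 133. Among T cells Fas came next, with 28.2 CPM per kb in non-TFH and 49.2 in TFH cells, close to Tnfrsf13b with 28.05 and 42.1. Tnfsf13b was the least abundant member in TFH cells, at 0.433 CPM per kb. In these bulk samples a smaller number of expressing cells and less RNA per cell cannot be told apart.

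**Figure D1:**
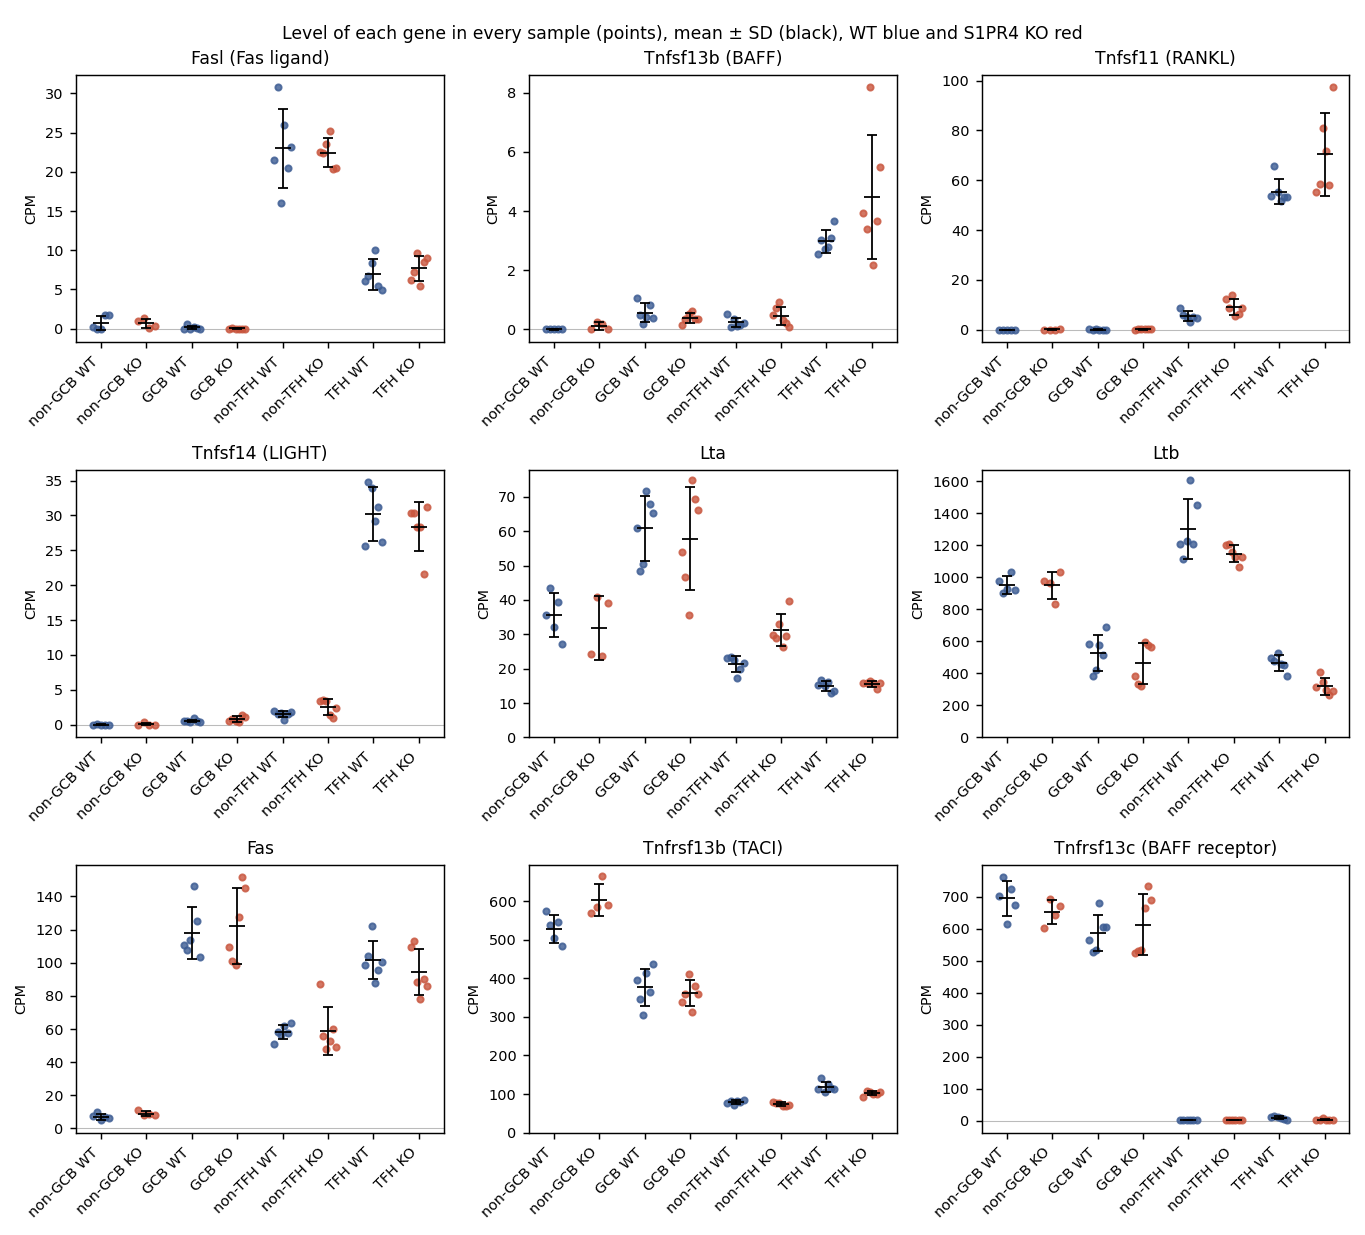
Level of each of the 9 members (CPM, linear axes) in every sample of the 4 populations, with WT and S1PR4 KO samples side by side. Tnfsf11 and Tnfsf14 stood highest in TFH cells, Fasl in non-TFH cells and Tnfrsf13c in both B cell populations.

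The first comparison asked how the family differed between TFH cells and non-TFH CD4+ T cells of the same day. In WT mice the ligands LIGHT, RANKL and BAFF were higher in TFH cells, and Fas ligand and lymphotoxin β were lower. A member was called where edgeR's quasi-likelihood test gave a Benjamini-Hochberg adjusted p under 0.05 and the fold was over 1.5. By that rule 6 of 9 members were called higher and 2 lower in WT TFH cells, where 43.2% of all genes tested were called in either direction. Tnfsf13b is among the 6. It passed the low-count filter through TFH cells, where it was higher, so its call is not read against that share. All 9 members passed the adjusted p alone, which 68.7% of genes did. In KO mice 5 members were called higher and 3 lower, against 43.4% of all genes, and all 9 passed the adjusted p alone, against 70.7% of genes. Tnfsf13b is among these 5, and among the 9 of each genotype, with the same limit. The median log2 difference of the 9 members was 0.80 in WT and 0.70 in KO mice, where the median over all genes was 0.0003 and 0.0068.

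Tnfsf14, which encodes the ligand LIGHT, had 25.7, 30.3 and 34.8 CPM (lowest, median and highest of 6) in WT TFH cells. It had 0.609, 1.61 and 1.96 CPM in WT non-TFH cells, so the groups lay far apart. The log2 difference was 4.31 (SE 0.21, adjusted p = 3.37e-10, edgeR). In KO mice Tnfsf14 had 21.6, 29.4 and 31.3 CPM in TFH cells and 0.894, 2.89 and 3.53 CPM in non-TFH cells, again without overlap. The KO difference was 3.51 (SE 0.27, adjusted p = 5.25e-08, edgeR).

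Tnfsf11 encodes RANKL, the ligand of the receptor RANK on dendritic and bone-resorbing cells. It had 51.7, 53.4 and 65.6 CPM in WT TFH cells and 3.04, 5.13 and 8.85 CPM in WT non-TFH cells. Every TFH sample was above every non-TFH sample, with a log2 difference of 3.33 (SE 0.19, adjusted p = 1.41e-09, edgeR). In KO mice it had 55.4, 65.1 and 97.6 CPM in TFH cells and 5.48, 8.74 and 13.8 CPM in non-TFH cells. The groups did not overlap there either, and the log2 difference was 2.94 (SE 0.22, adjusted p = 4.68e-08, edgeR). The highest KO value, 97.6 CPM, was that of the sample with the high myeloid marker sum.

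Tnfsf13b, which encodes BAFF, was low throughout. WT TFH cells had 2.56, 2.90 and 3.66 CPM and WT non-TFH cells 0.0916, 0.178 and 0.510 CPM. The groups did not overlap and the log2 difference was 3.63 (SE 0.37, adjusted p = 5.54e-07, edgeR). In KO mice the values were 2.19, 3.80 and 8.21 CPM in TFH cells and 0.0792, 0.391 and 0.912 CPM in non-TFH cells. There the difference was 3.30 (SE 0.47, adjusted p = 2.45e-05, edgeR). Tnfsf13b passed the low-count filter through TFH cells, where it was higher, so these tests are given as a description. Myeloid cells, which a TCRβ+CD4+ sort would remove, make much BAFF, and the 12 myeloid markers summed to 38.1 to 98.2 CPM in WT TFH cells, with S100a9 at 0, and 14.4 to 46.3 CPM in WT non-TFH cells, with Clec9a at 0. In KO cells the sums were 26.7 to 458.9 CPM in TFH cells, with S100a8 at 0, and 11.9 to 36.8 CPM in non-TFH cells, with Clec9a at 0. The part of these cells in the Tnfsf13b difference was not tested.

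The promoters of Tnfsf14 and Tnfsf11, the ligands that rose in TFH cells and exceeded 10 CPM there, are shown as RefSeq gives them on GRCm38.p6, from 250 bases before to 50 bases after the gene's start, read along the gene's own strand. Capitals mark matches to 3 motifs searched on both strands: the NF-κB consensus, the AP-1 site TGANTCA and the TATA box TATAAA. Over 32851 promoters of the same length these were found in 8.46%, 7.81% and 13.6%. The promoter of Tnfsf11 (chr14:78307994-78308293, minus strand) held a TATA box match on the opposite strand at -32 to -27 from the start. The promoter of Tnfsf14 (chr17:57194132-57194431, minus strand) held an AP-1 match at -160 to -154.
Tnfsf11: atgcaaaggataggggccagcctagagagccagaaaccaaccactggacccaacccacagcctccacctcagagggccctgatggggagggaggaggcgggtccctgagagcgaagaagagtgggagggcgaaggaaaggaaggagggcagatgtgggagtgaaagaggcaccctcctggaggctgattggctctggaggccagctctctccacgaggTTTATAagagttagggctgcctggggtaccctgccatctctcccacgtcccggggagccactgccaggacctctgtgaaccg
Tnfsf14: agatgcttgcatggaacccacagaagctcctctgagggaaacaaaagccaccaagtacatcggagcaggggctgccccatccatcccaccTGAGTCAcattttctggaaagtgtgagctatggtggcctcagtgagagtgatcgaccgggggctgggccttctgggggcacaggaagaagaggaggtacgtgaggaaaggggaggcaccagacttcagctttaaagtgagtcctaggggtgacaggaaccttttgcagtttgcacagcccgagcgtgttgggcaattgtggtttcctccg
A match describes the letters of the window and is not a measured binding site. All 9 members had an entry in the table, and the AP-1 site was found in 3 of them, Fas, Tnfsf13b and Tnfsf14.

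Fasl, which encodes Fas ligand (chr1:161780689-161788495), went the other way. It had 16.0, 22.3 and 30.9 CPM in WT non-TFH cells and 4.87, 6.39 and 9.96 CPM in WT TFH cells. All TFH samples were below all non-TFH samples, and the log2 difference was -1.73 (SE 0.19, adjusted p = 1.27e-06, edgeR). In KO mice it had 20.3, 22.5 and 25.3 CPM in non-TFH cells and 5.48, 7.82 and 9.59 CPM in TFH cells, a difference of -1.54 (SE 0.13, adjusted p = 1.69e-07, edgeR). Cytotoxic cells also make Fas ligand. Their 10 markers summed to 163 to 211 CPM in WT non-TFH and 108 to 162 CPM in WT TFH cells, all 10 detected, though a TCRβ+CD4+ sort would remove NK cells and most CD8 T cells. The sums differed through Prf1 (perforin), with means of 111.6 CPM in WT non-TFH and 4.95 CPM in WT TFH cells. Klrd1, at 9.79 and 1.89 CPM, and Cd8b1, at 20.7 and 11.8 CPM, went the same way. Klrb1c, at 1.78 and 51.7 CPM, and Gzmb, at 25.9 and 48.7 CPM, went the other way, as did Gzma and Nkg7. The part of cytotoxic cells in the Fasl difference was not tested. In the KO samples the 10 markers summed to 156 to 255 CPM in non-TFH and 63.2 to 209 CPM in TFH cells.

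Its receptor Fas (chr19:34290666-34327772) was higher in TFH cells. It had 87.8, 99.6 and 122 CPM in WT TFH cells and 51.1, 58.0 and 63.4 CPM in WT non-TFH cells, with a log2 difference of 0.80 (SE 0.08, adjusted p = 3.86e-07, edgeR). In KO mice Fas had 78.1, 89.3 and 113 CPM in TFH cells and 47.9, 54.4 and 87.2 CPM in non-TFH cells. The KO groups overlapped through 1 non-TFH sample at 87.2 CPM, the next being 60.0, and the difference was 0.70 (SE 0.14, adjusted p = 4.33e-04, edgeR), or 0.84 without that sample. The sample, replicate 1, also had the highest sum of TFH markers in its group, 486 CPM against 209 to 367, and of cytotoxic markers, 255 CPM against 156 to 202. In TFH cells the receptor was thus higher and its ligand lower than in non-TFH cells of both genotypes.

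Both lymphotoxin genes were lower in TFH cells. Ltb had 1118, 1218 and 1606 CPM in WT non-TFH cells and 383, 468 and 527 CPM in WT TFH cells, without overlap. The log2 difference was -1.48 (SE 0.09, adjusted p = 4.68e-09, edgeR). In KO mice Ltb had 1063, 1143 and 1208 CPM in non-TFH cells and 263, 305 and 410 CPM in TFH cells, and the difference was -1.83 (SE 0.09, adjusted p = 1.15e-09, edgeR). Lta had 17.3, 22.1 and 23.4 CPM in WT non-TFH cells and 13.0, 15.2 and 16.8 CPM in WT TFH cells. These groups did not overlap, but the log2 difference of -0.51 (SE 0.10, adjusted p = 3.06e-04, edgeR) was under the fold of 1.5. In KO mice Lta had 26.4, 29.7 and 39.7 CPM in non-TFH cells and 14.0, 15.9 and 16.4 CPM in TFH cells, and the difference of -0.98 (SE 0.09, adjusted p = 4.07e-07, edgeR) was past it.

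TACI, which is best known from B cells, was also read in T cells. Tnfrsf13b had 106, 115 and 142 CPM in WT TFH cells and 72.2, 81.0 and 83.3 CPM in WT non-TFH cells. The groups did not overlap and the log2 difference was 0.59 (SE 0.07, adjusted p = 4.56e-06, edgeR). It lay just past the fold of 1.5, and under it with limma-voom, total-count scaling, the replicate block and the B cell marker covariate, and without WT TFH replicate 2 or 4 or WT non-TFH replicate 1 or 3. The lowest of these values was 0.50. In KO mice it had 92.7, 103 and 108 CPM in TFH cells and 68.9, 74.3 and 79.6 CPM in non-TFH cells, and the difference was 0.47 (SE 0.05, adjusted p = 2.00e-06, edgeR), under the fold of 1.5. The T cell values were a sizeable fraction of the B cell level, at 20.0% to 26.8% of the mean of WT non-GC B cells in WT TFH samples and 13.7% to 15.8% in WT non-TFH samples. The 12 B cell markers of the same samples summed to 1.09% to 3.00% of that mean in WT TFH cells and 0.391% to 0.640% in WT non-TFH cells. The 8 plasma cell markers, all detected, summed to 433 to 870 CPM in WT TFH and 252 to 315 CPM in WT non-TFH cells. In KO cells these sums were 395 to 451 and 264 to 368 CPM. The part of plasma cells in the Tnfrsf13b difference was not tested.

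Tnfrsf13c encodes the BAFF receptor of mature B cells and was low in T cells. It had 1.70, 9.18 and 15.5 CPM in WT TFH cells and 0.397, 1.93 and 2.46 CPM in WT non-TFH cells, with overlap. The log2 difference was 2.49 (SE 0.50, adjusted p = 4.87e-04, edgeR), and in KO mice 1.54 (SE 0.45, adjusted p = 0.00752), or 0.86 (adjusted p = 0.0136) without TFH replicate 3, which had the highest B cell marker sum of the KO TFH samples. As a share of the WT non-GC B mean, Tnfrsf13c stood at 0.244% to 2.23% in WT TFH cells, and the B cell marker sum at 1.09% to 3.00%. With a score over the 12 B cell markers as a covariate the difference became 0.69 (adjusted p = 0.285, edgeR) in WT and 0.28 (adjusted p = 0.534) in KO mice. With the same covariate each of the other 8 members kept its direction and an adjusted p under 0.05 in both genotypes, though the Tnfrsf13b difference in WT mice, 0.50, was then under the fold of 1.5.

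The next comparison asked how GC B cells differed from non-GC B cells. Lymphotoxin α was higher and lymphotoxin β lower in GC B cells of both genotypes, TACI was lower by the adjusted p, and the BAFF receptor did not pass edgeR's test with all samples. Of the 7 members tested, Fas was a gate, and Tnfsf14 and Tnfsf13b passed the low-count filter through GC B cells, where they were higher, so these 3 are left out of the counts. Of the 4 others, 1 was called higher and 1 lower in WT mice, where 47.8% of all genes were called, and 3 passed the adjusted p alone, as did 67.2% of genes. In KO mice 1 was called higher and 2 lower, against 48.2% of all genes, and 3 passed the adjusted p alone, against 64.6%. Fasl and Tnfsf11 were below the filter on low counts in both genotypes.

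Lta had 35.6, 43.5, 32.2, 39.4 and 27.1 CPM in the 5 WT non-GC B samples and 48.3, 63.2 and 71.7 CPM (lowest, median and highest of 6) in WT GC B cells. The groups did not overlap, and the log2 difference was 0.84 (SE 0.13, adjusted p = 1.17e-04, edgeR). In KO mice the 4 non-GC B samples had 24.2, 40.7, 23.7 and 39.2 CPM and GC B cells 35.7, 60.1 and 74.8 CPM. The KO groups overlapped through GC B replicate 3 at 35.7 CPM, and the difference was 0.92 (SE 0.24, adjusted p = 0.00556, edgeR). That sample had 19060 CPM of the 8 plasma cell markers where the other KO GC B samples had 2769 to 9441, and it was also the lowest of its group for Ltb and the highest for Tnfrsf13b. Without it the KO difference of Lta was 1.02 (adjusted p = 0.00121, edgeR), that of Ltb -0.90 and that of Tnfrsf13b -0.73. KO GC B replicates 1 to 3 all lay below replicates 4 to 6 for Lta, Ltb and Tnfrsf13c, with Ltb at 320 to 386 against 564 to 598 CPM. Their plasma cell marker sums were 6608 to 19060 against 2769 to 3180 CPM. In WT GC B cells the same split held for Lta and Tnfrsf13c but not for Ltb. Its source was not tested.

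Ltb had 976, 901, 927, 1037 and 920 CPM in WT non-GC B cells and 386, 548 and 689 CPM in WT GC B cells. Every GC B sample was lower, with a log2 difference of -0.78 (SE 0.13, adjusted p = 1.20e-04, edgeR). In KO mice it had 975, 963, 834 and 1031 CPM in non-GC B cells and 320, 475 and 598 CPM in GC B cells. The difference was -0.98 (SE 0.19, adjusted p = 8.98e-04, edgeR).

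The 2 genes lie on either side of Tnf on chromosome 17, in a stretch in which Ltb (chr17:35194439-35196320, plus strand) ends 6844 bp before Lta (chr17:35203165-35205351, minus strand). Their promoters are given in the same way as above, since the transcripts of these neighbours moved in opposite directions in B cells. The promoter of Lta (chr17:35205302-35205601, minus strand) held a TATA box match at -167 to -162, and that of Ltb (chr17:35194257-35194556, plus strand) an NF-κB consensus match on the opposite strand at -87 to -78.
Lta: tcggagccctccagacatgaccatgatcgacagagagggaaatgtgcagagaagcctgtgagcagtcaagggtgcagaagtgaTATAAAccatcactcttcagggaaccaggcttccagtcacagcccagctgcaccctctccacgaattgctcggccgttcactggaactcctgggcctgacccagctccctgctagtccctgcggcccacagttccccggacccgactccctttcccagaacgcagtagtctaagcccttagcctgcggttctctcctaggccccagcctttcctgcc
Ltb: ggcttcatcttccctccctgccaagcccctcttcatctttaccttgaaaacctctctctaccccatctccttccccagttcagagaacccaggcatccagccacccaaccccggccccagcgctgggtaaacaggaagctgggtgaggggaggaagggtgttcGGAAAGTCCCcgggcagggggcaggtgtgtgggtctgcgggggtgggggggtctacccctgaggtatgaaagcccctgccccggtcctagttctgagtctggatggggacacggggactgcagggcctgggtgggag
Ltb was the single member of 9 with an NF-κB consensus match in this window, and Lta and Tnfsf11 were the members with a TATA box match.

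Tnfrsf13b had 575, 537, 503, 545 and 483 CPM in WT non-GC B cells and 304, 380 and 437 CPM in WT GC B cells, without overlap. The log2 difference of -0.43 (SE 0.09, adjusted p = 8.23e-04, edgeR) was under the fold of 1.5. In KO mice the values were 570, 585, 664 and 590 CPM against 314, 360 and 412 CPM, and the difference of -0.68 (SE 0.08, adjusted p = 1.82e-05, edgeR) was past it. Tnfrsf13c had 701, 761, 615, 725 and 673 CPM in WT non-GC B cells and 528, 586 and 680 CPM in WT GC B cells, with overlap. Its log2 difference was -0.18 (95% interval -0.35 to -0.01, adjusted p = 0.0533, edgeR) in WT and -0.03 (95% interval -0.28 to 0.22, adjusted p = 0.835) in KO mice. The WT value passed the adjusted p with limma-voom, with total-count scaling (-0.28, adjusted p = 0.0101, edgeR) and without WT GC B replicate 4 or WT non-GC B replicate 3. Tnfrsf17, which encodes BCMA, the further BAFF family receptor found on plasma cells, had 1.35, 3.75 and 6.25 CPM in WT GC B cells and was at 0 in 3 of 5 WT non-GC B samples. The 8 plasma cell markers, all detected, summed to 4788 to 9863 CPM in WT GC B and 924 to 1314 CPM in WT non-GC B cells, and their part in the result was not tested.

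Fas followed the gate, with 104, 112 and 146 CPM in WT GC B cells and 7.22, 9.99, 4.81, 6.67 and 6.11 CPM in WT non-GC B cells. In KO mice it had 98.4, 119 and 152 CPM in GC B cells and 10.99, 8.10, 8.74 and 8.21 CPM in non-GC B cells.

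The remaining ligands were low in B cells. Fasl had a mean of 0.733 CPM in WT non-GC B and 0.141 CPM in WT GC B cells. Of its 108 counts in WT non-GC B cells, 52 and 50 came from replicates 4 and 5, whose 10 cytotoxic cell markers summed to 75.7 and 39.3 CPM against 5.59 to 6.35 in the other 3 samples, and their part was not tested. Tnfsf11 was at 0 in all 5 WT non-GC B samples and had a mean of 0.0991 CPM in WT GC B cells. Tnfsf14 had 110 counts over the 6 WT GC B samples and 1 count over the 5 WT non-GC B samples, a ratio of depth-scaled levels of 90.7 (95% exact interval 15.9 to 3620). In KO mice the counts were 161 and 11, a ratio of 9.58 (5.22 to 19.6), and the 11 counts all came from 1 of 4 samples. Tnfsf13b had 109 counts in WT GC B and 1 in WT non-GC B cells, a ratio of 89.9 (15.8 to 3580), and it fell below the low-count filter in 5 of the 11 fits that left out 1 sample. It had 73 and 14 counts in KO mice, a ratio of 3.41 (1.91 to 6.55), with the 14 counts in 2 of 4 samples. These intervals cover counting error alone, and the GC B levels themselves were 0.394, 0.536 and 0.891 CPM for Tnfsf14 and 0.182, 0.460 and 1.06 CPM for Tnfsf13b in WT mice. Between samples, the KO difference of Tnfsf13b did not pass with all samples, at 1.85 on the log2 scale (95% interval -0.02 to 3.71, adjusted p = 0.0760, edgeR). It passed with limma-voom, in the fit of all 8 groups (1.79, adjusted p = 0.0180) and without KO non-GC B replicate 2 (2.67, adjusted p = 0.0375). The KO difference of Tnfsf14 was 3.19 on the log2 scale (adjusted p = 0.0194, edgeR). It was 7.73 without KO non-GC B replicate 2 and 2.75 without KO non-GC B replicate 3, where the call was lost (adjusted p = 0.0501). Both genes passed the low-count filter through GC B cells, where they were higher, so these tests are given as a description. The 12 myeloid markers summed to 46.7 to 225 CPM in WT GC B cells and 14.5 to 61.8 CPM in WT non-GC B cells. These ranges overlapped, and all 12 markers were detected in each group. In KO cells the sums were 42.0 to 143 CPM in GC B and 18.4 to 29.9 CPM in non-GC B cells. Cd14 and Csf3r were at 0 in the KO non-GC B cells. The part of myeloid cells in the result was not tested.

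**Figure D2:**
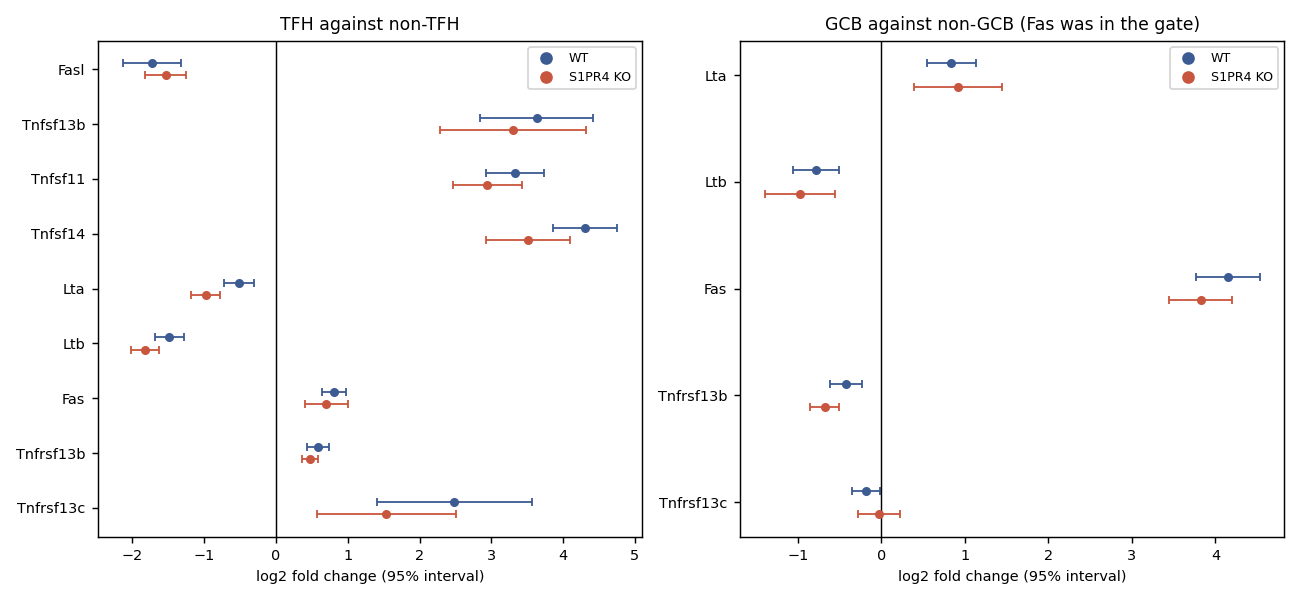
Log2 difference in WT and KO mice, with 95% intervals from edgeR. Each member is shown for TFH against non-TFH cells, and Lta, Ltb, Fas, Tnfrsf13b and Tnfrsf13c for GC B against non-GC B cells. Tnfsf14, Tnfsf11 and Tnfsf13b lay furthest to the right for T cells, and Lta lay to the left for T cells and to the right for B cells.

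Whether the follicular step of each lineage differed was asked directly, as the GC B against non-GC B difference minus the TFH against non-TFH difference in WT mice. By the adjusted p alone 4 of 9 members had a larger value in B cells and 2 a smaller one, where 41.7% of all genes passed. Without the gated Fas these were 3 and 2 of 8. The larger values still include Tnfsf13b, which passed the low-count filter through GC B and TFH cells, where it was higher. Its value is not read against that share. Lta rose in B cells and fell in T cells, and the difference between both steps was 1.28 on the log2 scale (SE 0.17, adjusted p = 1.83e-06, edgeR). Ltb fell in each lineage, less in B cells, with a difference of 0.64 (SE 0.17, adjusted p = 0.00394). Tnfrsf13b fell in B cells and rose in T cells, a difference of -1.08 (SE 0.11, adjusted p = 1.08e-07, edgeR). Tnfrsf13c differed by -2.72 (SE 0.50, adjusted p = 1.25e-04), Tnfsf13b by 2.20 (SE 0.88, adjusted p = 0.0486) and the gated Fas by 3.28. The Tnfrsf13c value carries the B cell marker values given above for T cells, and that of Tnfsf13b rests on 1 count in non-GC B cells and lost its adjusted p under 0.05 with DESeq2, limma-voom and 3 other settings, and when most single samples were left out.

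Set side by side in WT mice, RANKL, LIGHT, Fas ligand and BAFF were higher in TFH cells, and TACI, the BAFF receptor and lymphotoxin α in GC B cells. For GC B against TFH cells 3 of 9 members were called higher and 4 lower, against 44.3% of all genes, and 8 passed the adjusted p alone, against 67.8%. Without Fas, a gate of the GC B cells that was among those 8, these counts were 3, 4 and 7 of 8. Tnfsf11 and Fasl, both among the lower ones, passed the low-count filter through TFH cells, where they were higher. Their calls are therefore not read against these shares. GC B cells exceeded TFH cells by 6.05 for Tnfrsf13c (SE 0.40, adjusted p = 1.25e-08), 2.03 for Lta (SE 0.11, adjusted p = 1.66e-09) and 1.67 for Tnfrsf13b (SE 0.10, adjusted p = 2.60e-09) on the log2 scale (edgeR). TFH cells had 540 times the Tnfsf11 level of GC B cells (95% exact interval 349 to 884, from 12313 and 20 counts), and Tnfsf14, Fasl and Tnfsf13b were lower in GC B cells by log2 differences of -5.73, -5.62 and -2.40. Ltb did not pass, with a log2 difference of 0.20 (95% interval -0.08 to 0.47, adjusted p = 0.193, edgeR).

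For non-GC B against non-TFH cells, Fas, which gated the non-GC B cells as negative, is left out, and Tnfsf11, Tnfsf14 and Fasl passed the low-count filter through non-TFH cells. Of the 7 members tested beside Fas, 3 were called higher and these 3 lower, against 38.9% of all genes, and all 7 passed the adjusted p alone, against 57.3%. As the filter let the 3 lower members through by the group where they were high, their calls are not read against those shares. Tnfrsf13c was 8.81 higher (SE 0.36), Tnfrsf13b 2.79 (SE 0.06) and Lta 0.80 (SE 0.12) on the log2 scale. Fasl was lower by -4.96 (SE 0.75), and Ltb by -0.39 (SE 0.09, adjusted p = 0.00291, edgeR). Tnfsf11 had no count in any of 5 non-GC B samples, and against a floor of 3 counts over that group it was at least 296-fold higher in non-TFH cells.

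The main question of the design was whether loss of S1PR4 changed expression within a population. With all samples of a population fitted on their own, no member passed both thresholds by edgeR, and 1 member in each T cell population passed the adjusted p alone: Ltb, lower in KO TFH cells, and Lta, higher in KO non-TFH cells. In TFH cells 0 of 9 members were called, against 0.496% of all genes, and 1 passed the adjusted p alone, against 1.41%. There 5 members had an unadjusted p under 0.05, as did 2586 of 13495 genes. DESeq2 called 1 member, where it called 184 genes in all, and limma-voom 0. In non-TFH cells 0 of 9 were called, against 0.114%, with 1 by the adjusted p alone, against 0.235%, and 4 at an unadjusted p under 0.05, as were 1486 of 13197 genes. In GC B cells 0 of 7 were called, against 0.0612%, with 0 at an unadjusted p under 0.05, as were 540 of 13070 genes. In non-GC B cells 0 of 6 were called, against 0.0537%, with 1 at an unadjusted p under 0.05, as were 593 of 13038 genes. In these 3 populations DESeq2 and limma-voom also called 0 members.

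Ltb had 383, 468 and 527 CPM in WT TFH cells and 263, 305 and 410 CPM in KO TFH cells. Of the KO samples, 5 of 6 were below the lowest WT sample and the ranges overlapped through the sixth. The log2 difference was -0.54 (SE 0.10, 95% interval -0.76 to -0.33, adjusted p = 0.0274, edgeR). Leaving out each sample in turn moved it between -0.63 and -0.50, with adjusted p from 0.00626 to 0.0693 and over 0.05 in 7 of 12 cases, and without the sample of high myeloid marker sum it was -0.52 (adjusted p = 0.0622). In non-TFH cells Ltb had 1118, 1218 and 1606 CPM in WT and 1063, 1143 and 1208 CPM in KO mice, a difference of -0.19 (95% interval -0.36 to -0.01, adjusted p = 0.415, edgeR).

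Lta had 17.3, 22.1 and 23.4 CPM in WT non-TFH cells and 26.4, 29.7 and 39.7 CPM in KO non-TFH cells. All 6 KO samples were above all 6 WT samples, and the log2 difference was 0.55 (SE 0.10, 95% interval 0.33 to 0.77, adjusted p = 0.0381, edgeR). Leaving out each sample in turn moved it between 0.47 and 0.59, with adjusted p from 0.0385 to 0.107 and over 0.05 in 10 of 12 cases, and in a fit over all 8 groups the adjusted p was 0.0909. In TFH cells Lta had 13.0, 15.2 and 16.8 CPM in WT and 14.0, 15.9 and 16.4 CPM in KO mice, a difference of 0.06 (95% interval -0.11 to 0.24, adjusted p = 0.726). The KO effect in TFH cells minus that in non-TFH cells was -0.49 for Lta (SE 0.13, unadjusted p = 0.00106, adjusted p = 0.200) and -0.36 for Ltb (SE 0.14, adjusted p = 0.405) by edgeR. By this interaction 0 of 9 members passed in T cells, against 0.0139% of all genes, with 3 at an unadjusted p under 0.05, as were 1325 of 14401 genes. In B cells 0 of 8 passed, where 0% of all genes did, with 2 at an unadjusted p under 0.05, as were 664 of 14490 genes, and DESeq2 and limma-voom passed 0 members in each lineage.

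**Figure D3:**
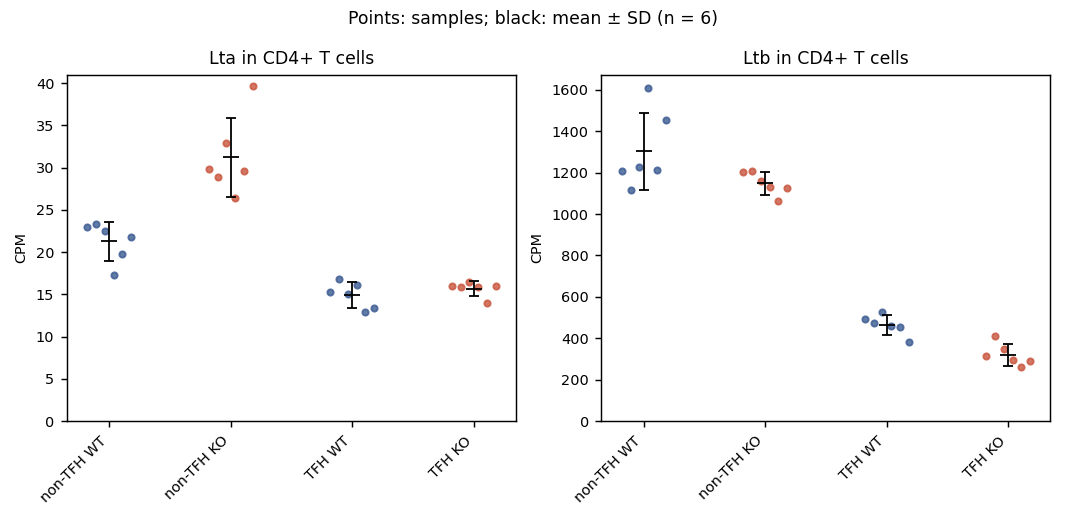
Lta and Ltb (CPM, linear axes) in each TFH and non-TFH sample of WT and KO mice, with the group mean and SD. Lta of all 6 KO non-TFH samples lay above the 6 WT samples, and Ltb of 5 of 6 KO TFH samples lay below the lowest WT sample.

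Levels of B cell markers in the T cell samples were compared between genotypes without a test. The 12 markers, all detected in each group, summed to 178, 339 and 492 CPM (lowest, median and highest of 6) in WT TFH cells and 161, 243 and 295 CPM in KO TFH cells. The ranges overlapped, and WT replicates 1 to 3 lay above every KO sample. Much of the sum was Cd22, at a mean of 179 CPM in WT and 194 CPM in KO TFH cells. Cd79a, a defining chain of the B cell receptor, had 1.64, 21.9 and 47.1 CPM in WT and 0.0222, 1.02 and 21.2 CPM in KO TFH cells. In non-TFH cells the sums were 64.1 to 105 CPM in WT and 59.0 to 72.1 CPM in KO samples.

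Tnfrsf13c in TFH cells had 1.70, 9.18 and 15.5 CPM in WT and 0.932, 1.64 and 6.89 CPM in KO mice, with overlap. The log2 difference was -1.92 (SE 0.53, adjusted p = 0.0739, edgeR), and -0.52 (adjusted p = 0.623) with the B cell marker score as a covariate. It was the member that DESeq2 called in TFH cells, at -1.91 (adjusted p = 0.0213), and it was also called in a fit of all 8 groups, at -1.95 (adjusted p = 0.00155, edgeR). Leaving out each sample gave adjusted p from 0.0214 to 0.153, under 0.05 in 2 of 12 cases. The KO sample with the highest value, 6.89 CPM, also had the highest B cell marker sum of the KO TFH group, 295 CPM, and without it the difference was -2.60 (adjusted p = 0.0214, edgeR). With the same covariate the Ltb difference in TFH cells was -0.45 (adjusted p = 0.223) and the Lta difference in non-TFH cells 0.48 (adjusted p = 0.394). The part of B cells in these differences was not tested beyond this covariate. Plasma cell markers summed to 432.5, 503.7 and 869.8 CPM (lowest, median and highest) in WT TFH and 394.9, 415.5 and 451.2 CPM in KO TFH cells. These ranges overlapped. The highest sum was that of WT TFH replicate 4, which had 7.96 CPM of Tnfrsf13c. The part of plasma cells in the TFH differences between genotypes was not tested.

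**Figure D4:**
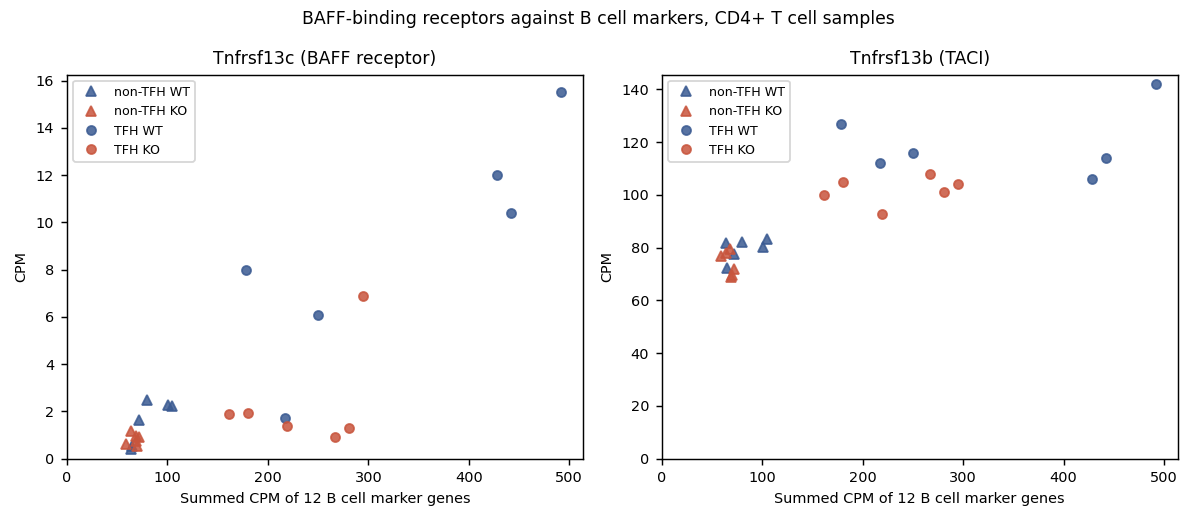
Tnfrsf13c and Tnfrsf13b (CPM) against the summed CPM of 12 B cell markers in each T cell sample. Tnfrsf13c was highest in the 3 WT TFH samples with the highest marker sums and stood at 6.89 CPM in the KO TFH sample with the highest sum of its group, while WT TFH replicate 4, with the lowest WT sum, had 7.96 CPM and KO TFH replicates 2 and 4, with sums of 267 and 281 CPM, had 0.932 and 1.3 CPM.

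The other members did not pass the adjusted p by edgeR in KO against WT T cells. Tnfsf11 had 51.7, 53.4 and 65.6 CPM in WT and 55.4, 65.1 and 97.6 CPM in KO TFH cells, a log2 difference of 0.34 (95% interval 0.06 to 0.61, adjusted p = 0.171, edgeR), or 0.22 without the KO sample of high myeloid marker sum. In non-TFH cells it had 3.04, 5.13 and 8.85 CPM in WT and 5.48, 8.74 and 13.8 CPM in KO mice, a difference of 0.74 (95% interval 0.21 to 1.28, adjusted p = 0.262). Tnfrsf13b in TFH cells differed by -0.24 (95% interval -0.39 to -0.09, adjusted p = 0.0900), which passed the adjusted p with DESeq2 (-0.23, adjusted p = 0.0312), and Tnfsf13b by 0.58 (95% interval 0.03 to 1.14, adjusted p = 0.241), or 0.32 without the KO sample of high B cell marker sum. Fas differed by -0.11 (95% interval -0.32 to 0.10) in TFH and 0.01 (95% interval -0.25 to 0.28) in non-TFH cells. Fasl differed by 0.14 (95% interval -0.27 to 0.56) in TFH and -0.04 (95% interval -0.31 to 0.24) in non-TFH cells. Of the remaining members in non-TFH cells, Tnfrsf13c differed by -0.95 (95% interval -1.84 to -0.07, adjusted p = 0.406), Tnfsf13b by 0.94 (95% interval -0.25 to 2.12, adjusted p = 0.579), Tnfsf14 by 0.72 (95% interval -0.01 to 1.45, adjusted p = 0.449) and Tnfrsf13b by -0.10 (95% interval -0.22 to 0.02). Tnfsf14 differed by -0.10 (95% interval -0.31 to 0.12) in TFH cells. TFH marker sums were 338 to 486 CPM in KO non-TFH replicates 1 to 3 and 209 to 230 in replicates 4 to 6. WT non-TFH samples had 226 to 353 CPM. In these sets of KO replicates, Tnfsf11 had 8.93 to 13.8 and 5.48 to 8.55 CPM. Tnfsf14 had 3.37 to 3.53 and 0.894 to 2.40 CPM, and Tnfsf13b 0.474 to 0.912 and 0.0792 to 0.307 CPM. The part of TFH cells in the Tnfsf11, Tnfsf14 and Tnfsf13b differences was not tested.

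In B cells no member passed the adjusted p. In KO against WT GC B cells the log2 difference was 0.05 for Fas (95% interval -0.20 to 0.30), 0.06 for Tnfrsf13c (-0.15 to 0.27), -0.06 for Tnfrsf13b (-0.26 to 0.13), -0.08 for Lta (-0.42 to 0.27) and -0.20 for Ltb (-0.59 to 0.19). The low-count ligands had the largest estimates, 0.53 for Tnfsf14 (-0.24 to 1.29) and -0.53 for Tnfsf13b (-1.47 to 0.40). Adjusted p was 0.985 or more for each. In non-GC B cells Tnfrsf13b had 575, 537, 503, 545 and 483 CPM in WT and 570, 585, 664 and 590 CPM in KO mice, a difference of 0.19 (95% interval 0.04 to 0.35, unadjusted p = 0.0200, adjusted p = 0.981, edgeR). Ltb had a mean of 952 CPM in WT and 951 CPM in KO non-GC B cells, with a 95% interval of the log2 difference of -0.16 to 0.16.

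The rest of the superfamily was read from lists of 12 other ligands, 25 other receptors and 16 adaptor and death signalling genes. Their counts are set beside the shares of all genes called, and several lie near them. These shares were 43.2% and 43.4% for TFH against non-TFH cells in WT and KO mice. For GC B against non-GC B cells they were 47.8% and 48.2%. Where a gene passed the low-count filter through the group where it was higher, its call is not read against those shares. In WT TFH against non-TFH cells 3 of 6 other ligands tested were called higher and 0 lower, 8 of 18 receptors higher and 5 lower, and 1 of 16 adaptors higher and 6 lower. Tnfsf8 (CD30 ligand) rose by 2.44, Tnfsf9 (4-1BB ligand) by 2.1 and Tnf by 1.07 on the log2 scale, and among receptors Tnfrsf21 (death receptor 6) rose by 4.31, Tnfrsf8 (CD30, the receptor of CD30 ligand) by 3.88 and Cd40 by 3.18. Cd40 is also a B cell gene, at 147 CPM in WT non-GC B and 3.76 CPM in WT TFH cells. Map3k14, the kinase NIK of the alternative NF-κB pathway that the BAFF and lymphotoxin β receptors use, fell by 1.38, Traf6 by 1.02 and Birc2 (cIAP1) by 0.91. In KO mice 3 of 6 other ligands were called higher and 1 lower, 8 of 19 receptors higher and 5 lower, and 0 of 16 adaptors higher and 7 lower. In WT GC B against non-GC B cells 3 of 5 other ligands were called higher and 1 lower, 4 of 18 receptors higher and 10 lower, and 1 of 16 adaptors higher and 6 lower. There Tnfsf9 rose by 1.31 and Tnf by 0.80, while Tnfsf10 (TRAIL) fell by 1.14. The receptors with the largest changes were Tnfrsf17, 5.85 higher, Tnfrsf19, lower by -4.07, and Tnfrsf8, 3.02 higher. In their lower group these had means of 0.0577, 0.127 and 0.255 CPM, and they passed the low-count filter through the other group. Their calls are therefore not read against the share. Birc3 (cIAP2) fell by 1.26 and Map3k14 by 1.21, and the adaptor Traf1 rose by 1.14. In KO mice 3 of 5 other ligands were called higher and 0 lower, 4 of 17 receptors higher and 9 lower, and 1 of 16 adaptors higher and 5 lower. Tnfrsf17 and Tnfrsf8 are among the higher receptors there, at means of 0.00784 and 0.192 CPM in KO non-GC B cells, with the same limit. The median log2 difference was -0.70 for the receptors and -0.38 for the adaptors in GC B cells, against 0.0021 over all genes.

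Receptors of lymphotoxin β, RANKL and LIGHT had group means of at most 3.37 CPM. The lymphotoxin β receptor gene Ltbr had a mean of at most 0.594 CPM in any group and the RANK gene Tnfrsf11a at most 1.51 CPM, both in TFH cells. Tnfrsf14 (HVEM) had 2.51, 3.28 and 4.44 CPM in WT TFH and 0.893, 1.18 and 1.65 CPM in WT non-TFH cells. Its mean was 2.46 CPM in KO TFH and 1.14 CPM in KO non-TFH cells, and at most 0.465 CPM in any B cell group. In KO against WT cells a single gene of these 3 lists was called, in TFH cells, where 0.496% of all genes tested were called. Over all genes that was 67 genes, a count that was 12 with the B cell marker covariate. The gene was Tnfrsf25, the death domain receptor DR3, with 37.6, 57.5 and 70.1 CPM in WT and 19.2, 27.0 and 38.5 CPM in KO TFH cells. Its log2 difference was -0.99 (SE 0.19, adjusted p = 0.0278, edgeR). Tnf, the gene between Ltb and Lta, had 7.65, 9.25 and 11.1 CPM in WT and 10.6, 15.2 and 18.2 CPM in KO non-TFH cells, a difference of 0.66 (SE 0.13, adjusted p = 0.0506).

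In the order of the 8 group means, the WT and KO groups of each population were neighbours for 6 of 9 members (Fas, Fasl, Tnfrsf13b, Tnfrsf13c, Tnfsf14 and Lta). For Fas the neighbouring groups in that order overlapped except between WT non-TFH cells, at 58.2 CPM ± 4.39 (SD, n = 6), and KO non-GC B cells, at 9.01 CPM ± 1.35 (SD, n = 4). For Lta, WT and KO non-TFH cells did not overlap, at 21.3 CPM ± 2.32 and 31.2 CPM ± 4.64 (SD, n = 6 each). For Tnfrsf13b the samples of each population lay apart from those of every other population, and WT and KO samples of 1 population overlapped.

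The genes most like each member over all 45 samples were ranked by Pearson's r of log2 CPM among 12026 genes, as a description in which the samples share populations. For the receptors these were Cd79b (r = 0.993), Dok3 and Lat2 for Tnfrsf13c, Unc93b1 (0.989), Serp1 (0.987) and Snx9 (0.986) for Tnfrsf13b, and Cttn (0.971), Akr1b3 (0.954) and Lxn (0.951) for Fas. For the ligands highest in TFH cells they were Fyn (0.984), Rinl (0.982) and Gm14718 (0.979) for Tnfsf11, Glrx (0.973), Slc29a1 (0.969) and Uba1 (0.963) for Tnfsf14, and Gemin8 (0.938), Tox2 (0.929) and Tmem38b (0.928) for Tnfsf13b. Fasl was most like Ramp1 (0.956), Ms4a4b and Lef1 (0.951). Ltb was most like Traf3ip3 (0.954), Scml4 (0.951) and Rasgrp2 (0.941), and Lta like Emid1 (0.931), A430018G15Rik (0.921) and Epb41l2 (0.918).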

How the data were processed

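RNA from 45 sorted samples was converted to libraries with a stranded kit after oligo-dT capture. In the authors' pipeline cutadapt 2.10 removed adapters, STAR 2.5.3 placed the reads on mm10, Picard marked duplicates and RSEM 1.3.0 estimated counts per gene. They deposited these expected counts, with no scaling for depth or length, and 8.83% of the values were not whole. The study's methods name GENCODE M30, but the table has the genes of M21, from which coordinates are given on mm10. The strand setting of RSEM is not given in the sources used here. The opposite-strand genes Gm12269 at Tnfrsf13b and Gm44789 at Tnfsf13b overlap members, as do Gm27818 at Fas, Mir6974 at Lta and Mir6973a at Ltb on the same strand, and shared reads there are uncertain.

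Expected counts were rounded and tested with edgeR 4.0.16 (R 4.3.3): filterByExpr, TMM scaling, quasi-likelihood fit of the compared groups, and Benjamini-Hochberg adjustment over all genes tested. The study's own tests used DESeq2. A call needed an adjusted p under 0.05 and a fold over 1.5, or for interactions the adjusted p alone. CPM used TMM factors over all 45 samples, and intervals are 95%. Exact intervals of count ratios cover counting error only. The sorts came from 6 WT and 6 KO mice by the study's methods. Samples of different populations may share a mouse, and p-values measure the spread between samples. Alternatives were RLE and total-count scaling, no low-count filter, DESeq2 1.42.0, limma-voom (limma 3.58.1), a block by replicate number, a joint fit of the 8 groups, a B cell marker covariate and leaving out each sample. The call by the adjusted p alone and the comparison of lineages were chosen after seeing the data. The members, marker lists and family lists were chosen with earlier results of these data known. Genes outside the members are named as the 3 of each list with the largest change among those called with a mean of at least 1 CPM, here for TFH against non-TFH and GC B against non-GC B cells in WT mice, as those called for KO against WT, or as partners of a member. The fits were tested on simulated counts.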

Additional observations from a re-analysis of the deposited data

Results flagged for a closer look

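Within groups of 4 to 6 samples, 12 of 71 groups examined had a sample set apart from the rest by more than Dixon's 95% limit, and chance gives about 1 in 20. Fas was 87.2 CPM in KO non-TFH replicate 1, where the next sample was at 60.0. Tnfrsf13c was 6.89 CPM in KO TFH replicate 3, where the next was at 1.92. Tnfsf11 was 65.6 CPM in WT TFH replicate 2, where the next was at 55.3. Tnfsf14 was lowest at 0.609 CPM in WT non-TFH replicate 4 (next 1.51) and at 21.6 CPM in KO TFH replicate 5 (next 28.3), and highest at 0.891 CPM in WT GC B replicate 4 (next 0.559). Lta was lowest at 14.0 CPM in KO TFH replicate 5, where the next was at 15.9.

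The remaining 5 cases rest on few counts in 1 sample with the others at 0. They are Fasl at 0.0901 CPM (3 counts) in KO GC B replicate 2, Tnfsf13b at 0.03 CPM (1 count) in WT non-GC B replicate 1, Tnfsf14 at 0.0328 CPM (1 count) in WT non-GC B replicate 2 and 0.364 CPM (11 counts) in KO non-GC B replicate 2, and Tnfsf11 at 0.502 CPM (16 counts) in KO non-GC B replicate 4.

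The step from non-GC B to GC B cells differed from the step from non-TFH to TFH cells in WT mice for 6 of 9 members by edgeR's interaction test, which 41.7% of all genes passed. On the log2 scale the differences were 3.28 for Fas, which gated the B cells, 1.28 for Lta, 0.64 for Ltb, 2.20 for Tnfsf13b, -1.08 for Tnfrsf13b and -2.72 for Tnfrsf13c. The Tnfsf13b difference (adjusted p = 0.0486) lost the threshold in 5 of 7 other settings and in 15 of 23 fits that left out 1 sample. The B and T cells also differed in day and sort, and these cannot be told apart from lineage.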

How the results depend on the processing

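Of 2286 member values under alternative settings, 2213 kept their direction and side of the threshold, 31 lost the call, 11 gained it and 31 changed sign. Between populations, the counts of members called stayed within 1.5 times under each alternative run. For KO against WT TFH cells the count of members called was 1 with DESeq2, 1 in a fit of all 8 groups and 0 to 2 without each sample, against 0. By the adjusted p alone it was 3 with DESeq2, 2 with all 8 groups, 0 with the B cell covariate and 0 to 2 without each sample, against 1. In KO against WT non-TFH cells that count was 0 with all 8 groups, 0 with the covariate and 0 to 1 without each sample, against 1, and the count called was 0 to 1. The causes were not tested.

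Changes of sign concerned values with wide intervals or near 0. By setting these were Tnfrsf13c in KO GC B against non-GC B cells (0.0049 without a filter), Fasl in KO against WT non-GC B cells (1.45 by limma-voom, 2.16 with the replicate block), Fas in KO against WT non-TFH cells (-0.015 by limma-voom, -0.014 with the block), Tnfsf13b there with the covariate (-0.087), and by limma-voom the lineage differences of Fasl (0.30) and Tnfsf11 (-0.91). Leaving out each sample gave -0.11 to 0.011 for Tnfrsf13c in KO GC B against non-GC B cells. For KO against WT it gave -0.17 to 0.023 for Lta, -0.028 to 0.11 for Fas and -0.0032 to 0.10 for Tnfrsf13c in GC B cells, -0.67 to 0.54 for Fasl and -0.044 to 0.058 for Ltb in non-GC B cells, and -0.12 to 0.064 for Fasl and -0.13 to 0.066 for Fas in non-TFH cells. For interactions it gave -4.02 to 1.89 for Tnfsf14 and -0.036 to 0.22 for Lta in B cells, -0.18 to 0.028 for Fas in T cells and -1.63 to 0.0033 for Fasl between lineages.

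Nothing in the labels links equal replicate numbers, and they were not taken as pairs because not every pair correlated over 0.1. Same-numbered deviations correlated at 0.0454 to 0.205 in WT T cells (2 of 6 pairs over 0.1), 0.0866 to 0.163 in KO T cells (3 of 6), -0.00105 to 0.103 in WT B cells (1 of 5) and -0.0452 to 0.0177 in KO B cells (0 of 4). As a hint from the data, 4 of 6, 6 of 6, 4 of 5 and 0 of 4 samples correlated best with their own number. With the replicate block the count over all genes in KO against WT TFH cells was 46 in place of 67. That count was 184 with DESeq2, 153 with all 8 groups, 12 with the covariate and 15 to 117 without each sample. In non-TFH cells it was 56 with DESeq2, 9 with the covariate and 27 without WT replicate 6, against 15. In GC B cells it was 14 with DESeq2 against 8, and in non-GC B cells 16 with DESeq2 and 25 with all 8 groups against 7. For the interaction in B cells it was 6 with DESeq2, 5 with all 8 groups and 1 without KO non-GC B replicate 1, against 0. In T cells it was 76 with DESeq2 and 10 with the block, against 2. There it was 1 with total-count scaling, limma-voom or the covariate, and 0 to 6 without each sample. Members under 1 CPM in B cells rest on few counts, so small changes between genotypes in them could not be detected at this depth.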

Other observations

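Both receptors of soluble lymphotoxin α and TNF differed between populations. Tnfrsf1a (TNF receptor 1, which carries a death domain) had 27.1, 37.0 and 42.5 CPM (lowest, median and highest of 6) in WT non-TFH cells and 17.1, 21.5 and 24.5 CPM in WT TFH cells. It was lower in TFH cells by -0.77 on the log2 scale in WT (SE 0.12, adjusted p = 6.33e-05, edgeR) and by -1.06 in KO mice (SE 0.10, adjusted p = 5.57e-07). In B cells its mean was at most 0.463 CPM. Tnfrsf1b (TNF receptor 2, which lacks a death domain) had 210, 237 and 277 CPM in WT TFH and 70.1, 146 and 174 CPM in WT non-TFH cells, 0.80 higher (SE 0.16, adjusted p = 5.09e-04). In KO mice that difference was 0.27 (95% interval 0.00 to 0.54, adjusted p = 0.0706), and the test of the genotype difference gave an adjusted p of 0.445. In B cells Tnfrsf1b fell from a mean of 75.2 CPM in WT non-GC to 39.7 CPM in WT GC B cells, by -0.86 (SE 0.17, adjusted p = 5.63e-04) in WT and -0.79 (SE 0.15, adjusted p = 7.17e-04) in KO mice. Tnfsf13, which encodes APRIL, the other ligand of TACI, had a mean of at most 0.195 CPM in any group.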
